A study of Mus musculus with 52 samples.

Results

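Cfd, Elane and Prtn3 are 3 neighbouring genes on mouse chromosome 10, and this account maps every ChIP-seq peak on and around them in brown adipose tissue (BAT), the fat depot that burns lipid to make heat. They are 3 of the 21631 protein-coding genes of chromosomes 1 to 19 and X, and they were chosen because PPARG and PPARA binding at Cfd and Elane was known to be lower after cold in these same lists. The values of the PPARG and PPARA lists are therefore described here without a test, and tests were kept to the H3K27ac lists, which come from other libraries. Genes and tests were still chosen with earlier results of these data known, so the H3K27ac tests are not shown to be free of that choice. A locus is the GRCm38.p6 gene body plus 10 kb on each side, and the 3 loci together make a window of 33.0 kb, chr10:79869667-79902655. All 3 loci share a stretch of 12.3 kb, which is 56.5% of the Cfd locus, 56.3% of the Elane locus and 52.4% of the Prtn3 locus, so each peak was placed once in the window before any value was given per gene.

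Chromatin immunoprecipitation sequencing (ChIP-seq) enriches DNA bound by a protein, and a peak list gives the places where the enrichment was called. The series held 52 samples of BAT, of which 35 had a peak list and 17 were input libraries. Mice were kept at room temperature (RT) or given 4 h of cold stress. PPARG was profiled in WT mice at RT (n = 3) and in cold (n = 3), and ERR1 in WT mice with 1 library at each temperature. PPARA was profiled in HA-PPARA KI mice at RT (n = 2) and in cold (n = 3), PGC1A in cold (n = 3) under the genotype PGC1A-HIsHA KI, CEBPA in HA-CEBPA KI mice at RT (n = 3) and CEBPB in HA-CEBPB KI mice in cold (n = 2). These 4 proteins were pulled down with the same antibody in knock-in mice, and the third PGC1A library carries the genotype label HA-CEBPA KI and was grouped by its title. H3K27ac is a histone acetylation found at promoters and enhancers in use. A WT cohort gave 3 H3K27ac libraries at each temperature. Further ones came from TXNIP WT and TXNIP KO mice, 2 for each genotype and temperature. The labels give no age, sex, strain or number of animals per library, so an error or p-value measures the spread between libraries, which may be technical.

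Cfd encodes complement factor D, also called adipsin, the serine protease that fat cells secrete and that cuts factor B to start the alternative complement pathway. Elane (neutrophil elastase) and Prtn3 (proteinase 3) encode serine proteases that neutrophil precursors store in azurophil granules. PPARG is the nuclear receptor that directs fat cell formation, PPARA is its relative in lipid burning, and CEBPA and CEBPB are leucine zipper factors that often bind beside PPARG in fat cells. PGC1A is a coactivator and ERR1 a nuclear receptor of mitochondrial genes.

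Cfd lies at chr10:79890853-79892655 (gene ID 11537), Elane at chr10:79886312-79888216 (gene ID 50701) and Prtn3 at chr10:79879667-79883174 (gene ID 19152), all on the plus strand. The window also holds part of Plppr3 and Med16, a Mediator subunit gene, and the pseudogene Gm19810 between Elane and Cfd. The strongest factor peaks of the window had their summits at the start of Cfd, so the 250 bases before that start are shown (RefSeq, GRCm38.p6, plus strand, chr10:79890603-79890852). The capitals run from the outermost upstream summit of the 5 PPARG and PPARA RT peaks, at 79890810, to the base before the start.

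Cfd upstream: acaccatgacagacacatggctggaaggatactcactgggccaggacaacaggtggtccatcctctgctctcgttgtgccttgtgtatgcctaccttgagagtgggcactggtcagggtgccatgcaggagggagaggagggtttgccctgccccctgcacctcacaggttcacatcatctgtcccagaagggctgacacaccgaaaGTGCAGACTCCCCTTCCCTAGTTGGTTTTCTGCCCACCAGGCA

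All 5 summits lie within these 43 capitals or on the first base of the gene. Both strands of the 300 bases around each start (250 before and 50 after) were searched for 4 motifs. These were the PPAR element (AGGTCA, any 1 base and AGGTCA again, with up to 2 mismatches), the hexamer AGGTCA itself, the ERR motif AAGGTCA, which contains the hexamer, and the C/EBP motif TTGCNNAA. None of the 4 was found in the windows of Cfd, Elane or Prtn3. Of 32851 promoter windows of the same length, 3.86% held the PPAR element, 16.3% the hexamer, 4.72% the ERR motif and 10.8% the C/EBP motif. The search says only that these spellings are not in these windows.

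The 21 factor lists held 46 peaks in the window, which merged into 8 sites, and the 14 H3K27ac lists held 67 peaks in 6 regions. PGC1A in cold, PPARA in cold and ERR1 at RT had no peak anywhere in the window. The PGC1A lists held only 2352 to 3061 peaks each over the genome, against 33281 to 47087 for PPARG. A missing PGC1A peak therefore says little about this window or its sites. PPARG lists held 7, 6 and 4 peaks at RT and 1 peak each in cold, and PPARA lists held 6 and 5 at RT and 0 in all 3 cold lists.

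**Figure D1:**
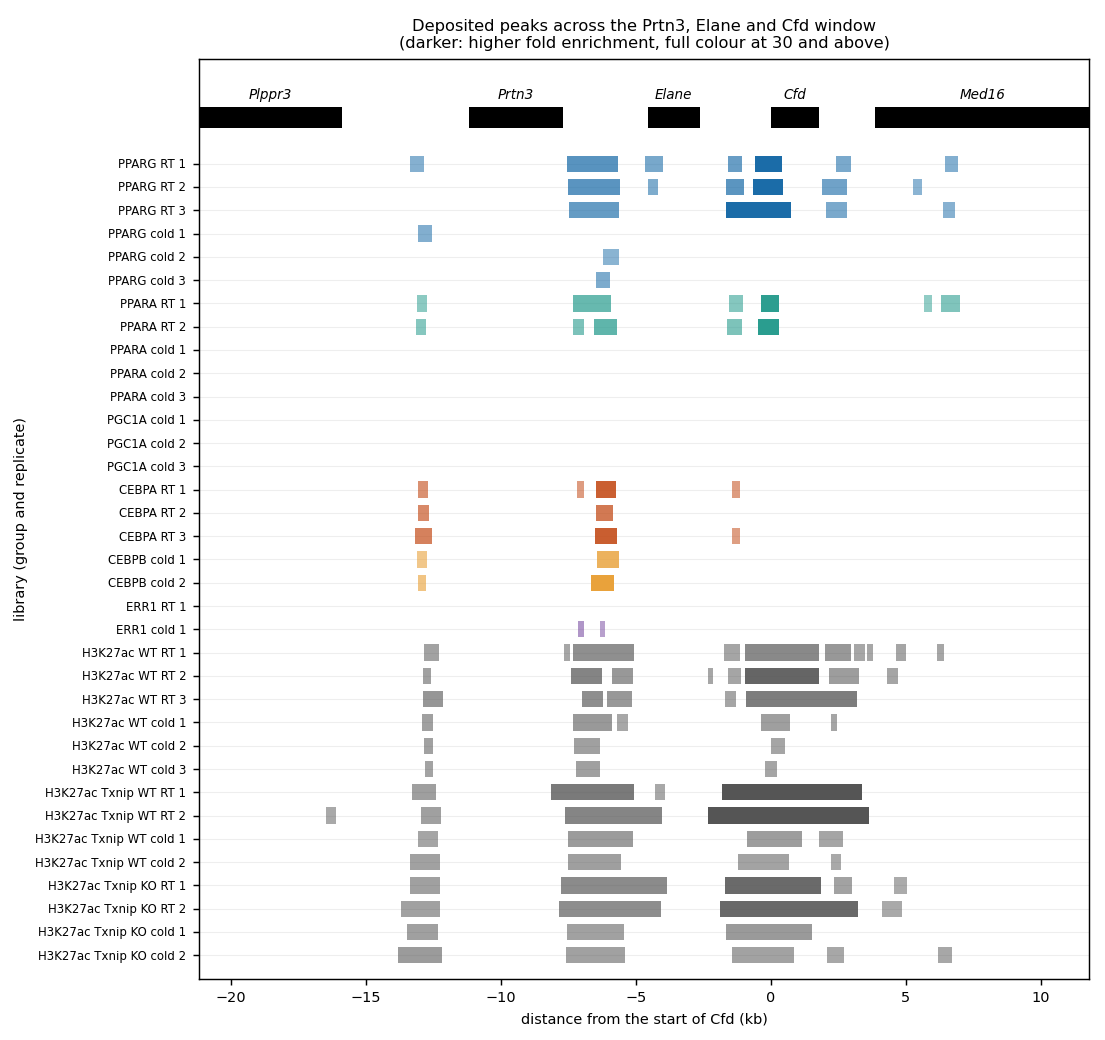
Each row is 1 library and each bar a deposited peak, placed by its distance from the start of Cfd in kb, with darker bars for a higher fold enrichment as deposited (full colour at 30 and above) and gene bodies in black on top. PPARG and PPARA bars crowd the start of Cfd at RT and are missing there in cold, while CEBPA (RT lists only) and CEBPB (cold lists only) have bars upstream of Prtn3 and between Prtn3 and Elane, and CEBPA has weak ones upstream of Cfd in replicates 1 and 3.

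The site at Cfd (chr10:79889194-79891589) covers its upstream region and its start. It was held by 3 of 3 PPARG RT lists and 0 of 3 PPARG cold lists, by 2 of 2 PPARA RT lists and 0 of 3 PPARA cold lists, and by no CEBPB, ERR1 or PGC1A list. The fold enrichment that the authors deposited for the peak at the start was 57.5, 54.5 and 55.7 in the PPARG RT lists and 29.4 and 31.2 in the PPARA RT lists. A weaker summit lay upstream, at a median of -1307 bp. PPARA RT lists had it with folds of 6.67 and 8.75, and PPARG RT replicates 1 and 2 with 11.6 and 14.6, while PPARG replicate 3 covered it with the peak of the start. CEBPA was listed at this upstream summit in replicates 1 and 3, with folds of 4.07 and 3.78, and had no peak over the start itself. Just after the gene, at chr10:79892757-79893826, PPARG was listed in 3 of 3 RT lists with folds of 7.17, 9.74 and 7.25, and in no other factor list.

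At Elane, PPARG covered its start (chr10:79886179-79886848) in RT replicates 1 and 2, with folds of 7.70 and 6.30, and in no other factor list. No factor peak touched the body of Prtn3 or the 300 bases around its start in any of the 21 lists. The nearest sites to Prtn3 lay on either side of it, 1.35 kb before and 0.14 kb after the gene.

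The site between Prtn3 and Elane (chr10:79883314-79885251) had the most factors. It held all 3 PPARG RT lists (15.46, 14.99 and 12.21), both PPARA RT lists (14.4 and 16.3), all 3 CEBPA lists (22.1, 14.3 and 22.3) and both CEBPB lists (20.6 and 30.2). It was also held by ERR1 in cold (7.91), PPARG in cold in replicates 2 and 3 only (3.18 and 6.68), and no PPARA cold list. Inside it most summits fell near 1 of a pair of positions, measured from the start of Cfd. PPARG at RT had its summits at -7108, -7104 and -7131 bp, whereas the strongest CEBPA peaks had them at -6173, -6180 and -6146 bp and CEBPB at -6177 and -6170 bp. The PPARG RT peaks were 1883, 1896 and 1854 bp wide, and all 3 also covered the C/EBP position, without a summit there. CEBPA replicate 1 had a further, weaker peak at the PPARG position (-7113 bp, fold 4.05). The 2 PPARG cold peaks had their summits at -6034 and -6199 bp, on the C/EBP side. PPARA had its summit at -6269 bp in RT replicate 1 and a peak on each side in RT replicate 2, at -7118 and -6221 bp, as did ERR1 in cold, at -7033 and -6248 bp.

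Upstream of Prtn3 (chr10:79877492-79878317) all 3 CEBPA lists (7.38, 9.71 and 12.0) and both CEBPB lists (8.04 and 9.82) had a peak. PPARA was listed there in both RT lists (4.67 and 6.43), and PPARG in replicate 1 alone at each temperature (4.58 at RT and 5.34 in cold). The 2 ERR1 cold peaks between Prtn3 and Elane, with folds of 7.91 and 4.85, ranked 17311 and 30475 of 45811 by p-value in their list, whereas the ERR1 RT list held only 16021 peaks in all. The 3 remaining sites, within Med16, were each held by 1 or 2 PPARG RT lists, 1 PPARA RT list or both.

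**Figure D2:**
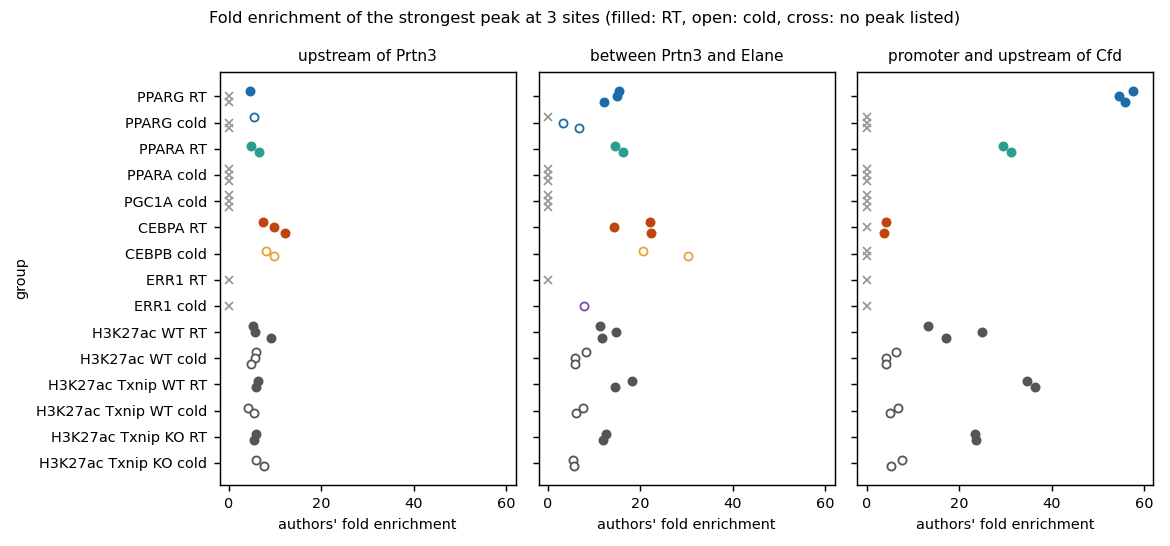
Points give the fold enrichment, as deposited, of the strongest peak of each library at 3 sites, with filled points for RT, open points for cold and crosses at 0 where no peak was listed. At the Cfd site PPARG at RT sits between 54.5 and 57.5 with no peak in cold, while CEBPA and CEBPB are highest between Prtn3 and Elane.

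Of the 8 merged sites, 2 were held by every PPARG RT list and no PPARG cold list (at Cfd and just after it), against 5.27% of the 59517 PPARG sites of the genome. For PPARA 3 of the 8 met the same rule (upstream of Prtn3, between Prtn3 and Elane, and at Cfd), against 24.1% of 33531 PPARA sites. These sites were among the values that chose the genes, so nothing is read from the counts. PPARA lists held 23603 to 26404 peaks at RT and 7324 to 11115 in cold, and PPARG lists 38798 to 47087 and 33281 to 39064. The part of these lengths in the missing peaks was not tested. Lists of equal length were among the alternatives, but their PPARG and PPARA values are not printed here.

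Cfd was chosen for lower binding in cold in these same lists, so the ranks that follow describe its site and test nothing. Among the 31834 PPARG sites held by every RT list, ordered by their lowest RT fold, the Cfd site ranked 325, in the top 1.02%. It was the only one of the first 325 that no cold list held (0.308%). The share of sites missing from every cold list was 0% in the first 100 and in ranks 101 to 300, 0.286% in ranks 301 to 1000, 0.4% in ranks 1001 to 3000, 1.93% in ranks 3001 to 10000 and 13.7% beyond. For PPARA the peak at the start of Cfd (chr10:79890376-79891167) ranked 236 of 18096, in the top 1.3%, and 2 of the first 236 were missing in cold (0.847%). It was the third strongest of the 8081 PPARA sites missing in cold, and the PPARG site was the first of 3137.

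**Figure D3:**
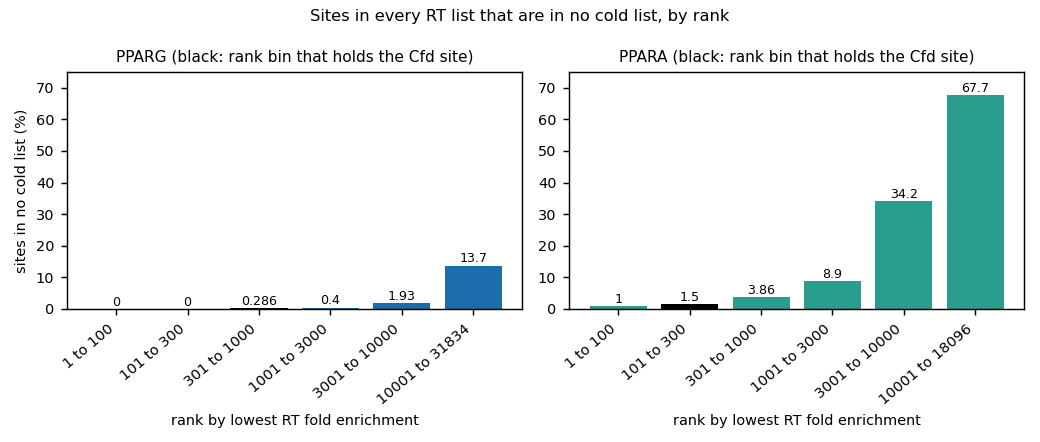
Bars give the percent of sites in every RT list that are in no cold list, by rank of their lowest RT fold enrichment, for PPARG and PPARA, with the bin that holds the Cfd site in black. The share grows as sites become weaker, and the Cfd site lies in bins where 0.286% of PPARG sites and 1.5% of PPARA sites were missing.

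Over the 87641 merged sites of all factor lists, 594 (0.678%) were held by every PPARG and PPARA RT list and by no PPARG or PPARA cold list, as the Cfd site was. Of these 594 sites, 61.3% were held by at least 1 CEBPA list, 31.3% by CEBPB, 47.6% by ERR1 in cold, 25.9% by ERR1 at RT and 0.842% by PGC1A. The Cfd site shared its lack of CEBPB, ERR1 and PGC1A with 220 sites in all (0.251% of 87641).

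The covered length, the number of bases of the window under a peak, gives 1 value per library. PPARG covered 5.65, 5.32 and 5.52 kb of the window at RT and 0.529, 0.604 and 0.507 kb in cold. PPARA covered 3.97 and 2.93 kb at RT and none in the 3 cold lists. CEBPA covered 1.66, 1.05 and 1.78 kb, CEBPB 1.19 and 1.16 kb, and ERR1 in cold 0.452 kb. The RT and cold libraries of PPARG, and those of PPARA, did not overlap. With lengths scaled to the library's total, every cold library lay below every RT library at 14% of 14105 PPARG gene loci. The same held at 39.6% of 10231 PPARA gene loci. The window lengths above are not scaled, and the share for unscaled lengths was not worked out.

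**Figure D4:**
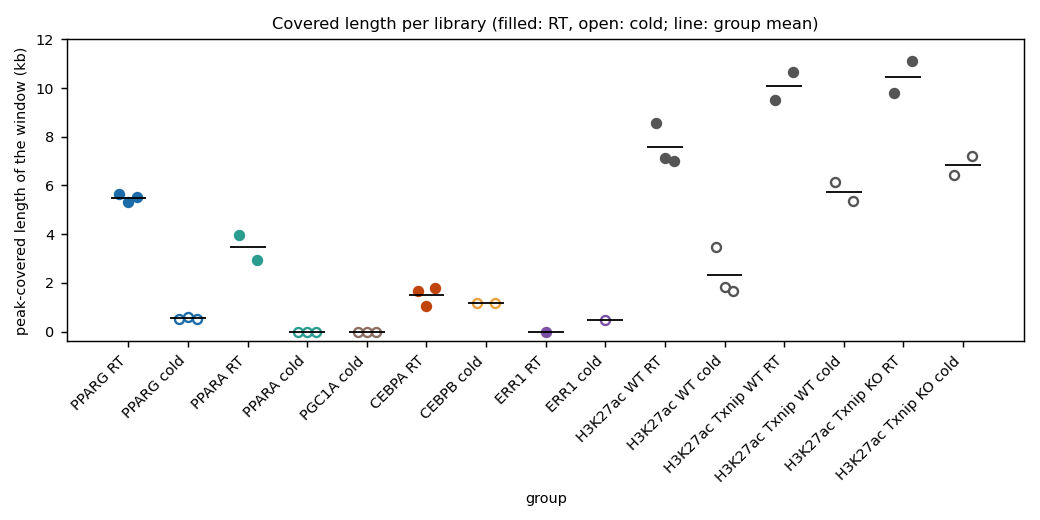
Each point is the peak-covered length of the window in 1 library in kb, filled at RT and open in cold, with a line at the group mean. PPARG, PPARA and all 3 H3K27ac cohorts have every cold point below every RT point. For H3K27ac the share of all loci that separate like this was not worked out.

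To compare loci across the genome, covered lengths were scaled to the library's total, 500 bp were added and log2 was taken, which understates the change of thinly covered loci. On that scale PPARG at Cfd fell by 2.65 from RT to cold, the lowest value of the 14105 loci, whose median was 0.03. Elane, with -2.28, was the third lowest and Prtn3, with -2.03, the ninth lowest. For PPARA the differences were -2.16 at Cfd, -2.29 at Elane and -2.12 at Prtn3, at ranks 13, 7 and 14 from the lowest of 10231 loci with a median of -0.44. No PPARA cold list had a peak at these loci, so the cold value was that of the added 500 bp alone. The size of each PPARA difference was thus set by the RT coverage and the 500 bp. The 3 genes share most of these bases. When each base was given to its nearest gene only, a setting added after the data were seen, PPARG covered 2.29 ± 0.604 kb of Cfd's stretch at RT and 0 kb in every cold library (SD, n = 3). Elane's stretch went from 1.14 ± 0.288 to 0.213 ± 0.247 kb and that of Prtn3 from 1.57 ± 0.331 to 0.334 ± 0.205 kb.

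H3K27ac at the 3 loci was lower after cold in the WT cohort. At the Cfd locus the covered length was 8.03, 6.86 and 6.27 kb at RT and 3.10, 1.48 and 1.35 kb in cold. The RT libraries all lay above the cold libraries, but the share of all loci with such a separation was not worked out for H3K27ac. The log2 change of the scaled length was -1.63 ± 0.23 (SE; limma, adjusted p = 0.00153), rank 56 from the lowest of 15163 loci, whose median change was 0.03. Elane fell by 1.52 (adjusted p = 0.00126) and Prtn3 by 1.27 (adjusted p = 0.0021, limma), and so all 3 genes passed, against 6.55% of loci called lower. In tissue, fewer cells that carry the mark and less of it per cell cannot be told apart.

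The region around Cfd (chr10:79888513-79894642) was covered over 4.67 ± 0.237 kb at RT and 0.750 ± 0.462 kb in cold in the WT cohort (SD, n = 3). The body of Cfd itself was covered over 1.80 ± 0.00643 kb of its 1803 bp at RT and 0.482 ± 0.232 kb in cold. Between Prtn3 and Elane (chr10:79882697-79887019) coverage was 2.05 ± 0.397 kb at RT and 1.23 ± 0.514 kb in cold, and the groups overlapped, with 1.74 kb in the lowest RT library and 1.82 kb in the highest cold library. Upstream of Prtn3 (chr10:79877058-79878715), where C/EBP factors were listed, it was 0.521 ± 0.225 kb and 0.347 ± 0.0380 kb, again with overlap. All 14 H3K27ac lists held a peak in each of these 3 regions. The highest fold enrichment at the Cfd site, as deposited, was 13.2, 24.9 and 17.2 at RT and 6.35, 4.22 and 4.24 in cold.

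When each base was given to its nearest gene, Cfd and Elane passed and Prtn3 did not. Cfd's own stretch (chr10:79889535-79893680) changed by -1.84 ± 0.22 in the WT cohort (limma, adjusted p = 0.000880), and Elane's by -1.62 ± 0.33 (adjusted p = 0.0108), with 5.84% of 14327 stretches called lower. In the WT cohort the peaks on Elane's stretch (chr10:79884744-79889534) belonged to the regions between Prtn3 and Elane and around Cfd. None of them touched the Elane body. Prtn3's own stretch had 1.99, 1.44 and 1.55 kb at RT and 1.58, 1.32 and 1.20 kb in cold, a change of -0.14 ± 0.11 (limma, adjusted p = 0.517). Prtn3 also did not pass with 5 kb flanks (-0.54, limma, adjusted p = 0.0645). The RT and cold libraries of Prtn3's stretch overlapped, and whether its change differs from that of Cfd was not tested. Med16, on the other side of Cfd, changed by -0.98 ± 0.14 over its locus (adjusted p = 0.00194) and by -0.54 ± 0.13 over its own stretch (limma, adjusted p = 0.0268). Plppr3, on the far side of Prtn3, changed by 0.05 ± 0.08 over its locus in the WT cohort (limma, adjusted p = 0.748) and by -0.17 ± 0.09 in TXNIP WT (adjusted p = 0.333), and fell by 0.34 in TXNIP KO (adjusted p = 0.0357). Med16 changed by -0.64 ± 0.18 over its locus in TXNIP WT (limma, adjusted p = 0.0526) and fell by 0.62 in TXNIP KO (adjusted p = 0.0397).

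TXNIP WT and TXNIP KO mice gave changes of the same direction in lists made separately. At the Cfd locus TXNIP WT libraries had 8.62 and 9.55 kb at RT and 5.38 and 4.21 kb in cold, and libraries labelled TXNIP KO had 8.67 and 9.65 kb at RT and 5.29 and 5.60 kb in cold. The cold libraries lay below the RT libraries in both genotypes, with 2 libraries per group. How many of all loci separate in this way was not worked out. The change in TXNIP WT was -0.98 ± 0.28 and did not pass (limma, adjusted p = 0.0609; 2.39% of loci were called lower). In TXNIP KO it was -1.05 ± 0.28 (limma, adjusted p = 0.0314; 6.49% of loci called lower). The TXNIP KO call was lost without any 1 of its 4 libraries (adjusted p from 0.0679 to 0.153) and when bases were given to the nearest gene (-0.72, limma, adjusted p = 0.0903, against 5.72% of stretches called lower). On Cfd's own stretch the change in TXNIP WT was -0.70 (limma, adjusted p = 0.161, against 2.36% called lower).

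Elane changed by -0.85 ± 0.25 in TXNIP WT (limma, adjusted p = 0.0668) and by -0.94 ± 0.25 in TXNIP KO (adjusted p = 0.0323). Prtn3 changed by -0.78 ± 0.24 (adjusted p = 0.0709) and -0.83 ± 0.24 (adjusted p = 0.0394). Without any 1 of the 4 TXNIP KO libraries neither passed there (adjusted p from 0.0585 to 0.153 for Elane and from 0.0774 to 0.185 for Prtn3, limma). On its own stretch Elane changed by -1.26 ± 0.40 in TXNIP WT (limma, adjusted p = 0.0934) and -1.41 ± 0.40 in TXNIP KO (adjusted p = 0.0429), while the values for Prtn3 were -0.21 ± 0.14 (adjusted p = 0.476) and -0.40 ± 0.14 (adjusted p = 0.0769). H3K27ac reached the Elane body at RT in both genotypes, over 0.445 ± 0.0990 kb in TXNIP WT and 0.598 ± 0.156 kb in TXNIP KO (SD, n = 2), and was listed at 0 kb there in their cold libraries and in all 6 libraries of the WT cohort. Median peak widths were 1132 to 1364 bp in the TXNIP lists and 600 to 660 bp in the WT cohort, so nothing is read from that contrast of cohorts. At the Cfd site the deposited fold was 34.6 and 36.4 at RT against 6.74 and 5.01 in cold in TXNIP WT, and 23.5 and 23.6 against 7.66 and 5.22 in TXNIP KO.

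**Figure D5:**
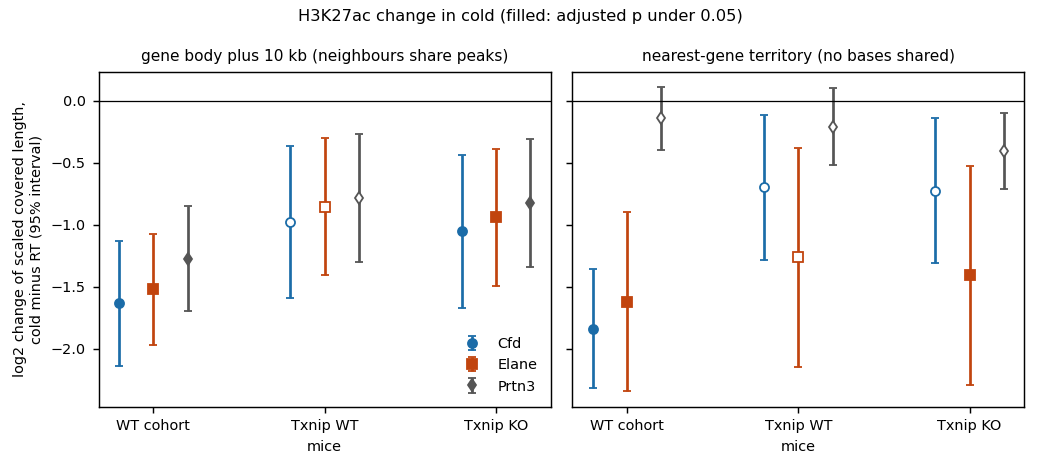
Points give the limma log2 change of H3K27ac covered length, cold minus RT, with its 95% interval, for Cfd, Elane and Prtn3 in 3 cohorts, filled where the adjusted p was under 0.05, with whole loci on the left and nearest-gene stretches on the right. All points lie below 0, and Prtn3 moves towards 0 once shared bases are removed, to -0.14 in the WT cohort.

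The genotypes were not shown to differ at Cfd. The difference TXNIP KO minus TXNIP WT was 0.08 at RT (95% interval -0.53 to 0.70; limma, adjusted p = 0.986; 0.0791% of loci called) and 0.00469 in cold (-0.61 to 0.62; adjusted p = 1; 0.442% called). The cold response of TXNIP KO minus that of TXNIP WT was -0.08 (-0.95 to 0.79; limma, adjusted p = 0.958; 0.033% called), so differences of close to 1 on the log2 scale stay within the interval. Signs of these small differences turned with several settings. The whole Txnip gene body was covered by H3K27ac in the libraries labelled TXNIP KO as in all others (3.90 kb), so these lists do not check the genotype label. Covered lengths were not tested between the WT cohort and the TXNIP mice, which held 49161 to 60230 and 37569 to 54848 peaks per list. The TXNIP lists nevertheless covered more of the genome, 73.2 to 108 Mb against 56.6 to 70.3 Mb, as their peaks were wider.

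None of the 12 other alternative complement pathway genes listed was called lower in the 3 cohorts by limma. In the WT cohort 0 were lower and 1 higher (median change -0.22, against 0.03 over all loci), in TXNIP WT 0 and 0 (0.16 against 0.01), and in TXNIP KO 0 were lower (0.18 against -0.03). Over all loci 5.39%, 4.54% and 7.73% were called higher. At an unadjusted p under 0.05 limma gave 2 lower and 2 higher in the WT cohort, 0 and 1 in TXNIP WT, and 2 lower in TXNIP KO. The counts of higher genes in TXNIP KO are not reported here, so no lean towards lower is read there. The locus of Cfi, the protease that degrades C3b, rose by 0.57 ± 0.13 in the WT cohort (limma, adjusted p = 0.0174). Its H3K27ac peaks covered only the 10 kb flanks, and 0 of 14 lists had a peak on the Cfi gene body. C3, the central component, changed by -0.44 ± 0.14 (adjusted p = 0.0751), the decay accelerator Cd55 by -0.45 ± 0.18 (adjusted p = 0.133) and the regulator Cr1l by 0.21 ± 0.08 (adjusted p = 0.108).

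All 8 brown fat markers listed, among them Ucp1, had an H3K27ac peak in all 14 lists. The share of all loci with a peak in all 14 was not worked out, so this does not identify the tissue. Of 11 neutrophil markers, 8 (S100a8, S100a9, Ngp, Camp, Ly6g, Cxcr2, Retnlg and Mmp8) had no H3K27ac peak in any of the 14, as did Ctsg and Mpo, the azurophil granule genes that are not neighbours of Cfd. The 3 neutrophil markers that could be tested, Ltf, Csf3r and Mmp9, had a peak in 14, 14 and 7 of the 14 lists. They gave no call by limma in any cohort. At an unadjusted p under 0.05 Ltf was lower in TXNIP WT and in TXNIP KO. Their part in the H3K27ac values at Elane and Prtn3 was not tested.

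Of 10 adipocyte genes known to bind PPARG and CEBPA, 1 fell in the WT cohort, 2 in TXNIP WT and 5 in TXNIP KO, where 6.55%, 2.39% and 6.49% of all loci were called lower. Their median changes were 0.04, -0.09 and -0.34 against 0.03, 0.01 and -0.03 over all loci. Lep, the gene of leptin, was the one in the WT cohort (-1.97 ± 0.39, limma, adjusted p = 0.00824), and it fell in TXNIP WT too (-1.89 ± 0.48, adjusted p = 0.0379). Cidec, a lipid droplet protein gene (-0.27, adjusted p = 0.0822), Lpl, lipoprotein lipase (0.20, adjusted p = 0.114), and Cd36, a fatty acid transporter (0.16, adjusted p = 0.155), did not pass in the WT cohort. Retn, the gene of resistin, fell by 0.56 in TXNIP WT (limma, adjusted p = 0.0445) and by 0.67 in TXNIP KO (adjusted p = 0.0153). The other genes that fell in TXNIP KO, by 0.30 to 0.36, were Pck1, Plin1, Agpat2 and Fabp4.

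Across the 35 libraries the loci most like Cfd, leaving out its surroundings, were Mogat2 on chromosome 7 (Pearson r = 0.93), an enzyme of diacylglycerol synthesis, Ints10 and 1700011L22Rik on chromosome 8 (both 0.92), Sytl1 on chromosome 4 (0.92) and Ppp1ccb on chromosome 7 (0.92). These r values are a description over libraries that share a target or cohort. At Mogat2 PPARG covered 8.11 kb at RT and 2.93 kb in cold, and PPARA 3.62 and 0.754 kb (group means). CEBPA, CEBPB, ERR1 and PGC1A were all listed at Mogat2, at 3.97, 2.83, 2.64 (cold) and 0.60 kb, where Cfd had 1.03, 0.82, 0.452 and 0 kb.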

How the data were processed

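BAT from mice was profiled by ChIP-seq; per the labels' protocols it was fixed with formaldehyde, after DSG for all targets but H3K27ac. The submitters' processing notes name MACS2 2.2.7.1, BWA 0.7.17, Trim Galore 0.6.0, deepTools 3.4.3 and SAMtools, and the build GRCm38.p6, without their settings. For every peak of a library, not pooled, the authors' caller wrote into the deposited narrowPeak table a score, the fold enrichment (a ratio) and p and q on the −log10 p scale. These deposited values only described, ranked or filtered peaks. Read depth is unknown from peak lists, so no interval rests on it, and list lengths can move with it.

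Peaks of a library were merged and their bases counted per protein-coding locus, scaled to the library total; log2 of the sum with 500 bp was used. Loci covered in at least 2 of the 14 H3K27ac libraries were fitted with limma 3.58.1 in R 4.3.3 (6 group means, trended empirical Bayes, two-sided, Benjamini-Hochberg over all loci, threshold 0.05). The code was tested on simulated loci. Factor sites were merged over lists, a site being held at 1 bp of overlap, and summits within 150 bp formed 1 position. Python 3.11.15, numpy 2.4.6 and pandas 2.3.3 were used. Genes and list members, gene lists and tests were chosen with earlier results of these data known. Named were the 3 members, genes in the window, up to 4 genes of each list with the lowest adjusted p in the WT cohort plus those called, and the 5 most alike loci. Alternatives were no scaling, other locus limits, stricter peaks (−log10 q of at least 10), lists of equal length, pseudocounts, filters, cohorts fitted alone, a replicate block and leaving out each library. Input libraries were not used here. Giving bases to the nearest gene was added after the data were seen. The values of 1 listed gene are not reported here.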

Additional observations from a re-analysis of the deposited data

How the results depend on the processing

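The fall of H3K27ac at Cfd in the WT cohort passed under all 18 alternatives (-2.47 to -1.28), Elane under 17 and Prtn3 under 15. In TXNIP WT it passed with 5 kb flanks (-1.22), lists of equal length (-0.99), a pseudocount of 1000 bp (-0.90), the cohort alone (-0.99) and the replicate block (-0.98). In TXNIP KO it no longer passed without scaling (-0.70), in the gene body alone (-0.72), with stricter peaks (-1.10), with no filter (-1.05), in nearest-gene stretches (-0.72) or without 1 library (-1.12 to -0.98). Where a setting lost or gained a call, the cause was not tested. The PPARG difference at Cfd was -0.96 in the gene body alone and -3.75 with a pseudocount of 100 bp; that of PPARA was -2.83 without scaling, -0.44 in the gene body alone, -2.02 with stricter peaks, -4.20 with a pseudocount of 100 bp and -2.32 to -1.79 without 1 library.

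No genotype difference passed in any setting, and signs turned. The difference of cold responses was 0.20 at Prtn3, 0.16 at Elane and 0.16 at Cfd without scaling, 0.12 at Prtn3 and 0.057 at Cfd in the gene body, 0.044 at Cfd with 5 kb flanks, 0.017 at Prtn3 and 0.077 at Elane with stricter peaks, and 0.035 at Prtn3 with lists of equal length. At RT it was -0.12 at Prtn3 in the gene body and -0.010 at Cfd in nearest-gene stretches. In cold it was -0.019 at Prtn3 and -0.022 at Elane with 5 kb flanks, and -0.038 at Cfd in nearest-gene stretches. Without 1 library the ranges for Prtn3, Elane and Cfd were -0.19 to 0.11, -0.24 to 0.068 and -0.30 to 0.14 for the cold response, -0.099 to 0.20, -0.093 to 0.21 and -0.22 to 0.22 in cold, and, for Prtn3 and Cfd at RT, -0.048 to 0.23 and -0.056 to 0.22.

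Without scaling the median change of all loci moved from -0.03 to 0.30 in TXNIP KO and from 0.01 to 0.12 in TXNIP WT, and the share of calls that were lower from 54.8% to 81.8% in the WT cohort, from 34.5% to 16.8% in TXNIP WT and from 45.6% to 2.94% in TXNIP KO. Called loci numbered 1811 in the WT cohort, 1050 in TXNIP WT and 2156 in TXNIP KO, and ranged over the alternatives from 851 (without RT replicate 1) to 2066, 292 (without RT replicate 2) to 1071 and 524 (without RT replicate 1) to 4424 (no scaling). Replicate numbers were not used to pair libraries in the main fit. Same-numbered libraries of the WT cohort correlated at 0.106, 0.0911 and 0.0679, each the best match of its library. RT and cold libraries of the same number correlated at -0.139 in TXNIP WT and -0.201 in TXNIP KO. Across genotypes the highest such value was 0.154, for TXNIP WT in cold and TXNIP KO at RT. These values do not settle whether the numbers pair the samples. The replicate block gave 1818, 947 and 1752 calls in the WT cohort, TXNIP WT and TXNIP KO. Peak lists keep no read counts, so a missing peak is one not called, not binding shown to be absent.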
